A study of Arabidopsis thaliana with 48 samples.

Results

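The 8 genes described here belong to the dark-inducible and starvation-inducible genes of Arabidopsis thaliana, the small mustard-family plant used as a genetic model. They are SEN1 (DIN1, AT4G35770), BGLU30 (DIN2, AT3G60140), DIN9 (AT1G67070), DIN10 (AT5G20250), DIN11 (AT3G49620), DRM1 (AT1G28330), KMD4 (AT3G59940) and EXL2 (AT5G64260). They were picked by gene identifier, with earlier results of these data known, and are 8 of the 32678 genes in the count tables. Each gene is represented by its longest transcript model, and all 8 passed the filter on low counts, which left 22586 genes for testing. RNA of seedlings was sequenced in 14 groups of 3 libraries. Seedlings of a snrk1a1/a2 mutant, marked kd in the titles, and wild-type seedlings were compared in 7 conditions. Seedlings of 3 d were in the dark, those of 4 d and 5 d either in the dark or in the light, and glucose was given at 4 d only, in the dark or in the light. Ages count days after germination. Nothing given for the samples says how the mutant was made, whether it is 1 line, when the light began, how much glucose was used, or whether the 3 libraries of a group came from separate cultures. The p-values then measure the spread between these libraries, which may be technical.

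SnRK1 is the plant counterpart of the yeast kinase SNF1 and of animal AMPK. Its catalytic subunit is encoded mainly by KIN10 (SnRK1α1) and KIN11 (SnRK1α2), and it is active when carbon is scarce. The DIN genes were named for transcripts that accumulate in darkened leaves and are held down by sugar, and several of them serve as readouts of SnRK1 activity in protoplasts and leaves. A seedling kept in the dark lives on its seed reserves until these run out.

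Levels below are in CPM, counts divided by library size after scaling with edgeR's TMM factors. Every fold change is on the log2 scale, and ± after one gives its standard error (SE) from the fit, with n = 3 libraries per group. Each comparison was tested with edgeR's quasi-likelihood test in 1 model of all 42 libraries, and a gene is said to have risen or fallen where the Benjamini-Hochberg adjusted p over all tested genes was under 0.05. Each adjusted p below is of that kind, and "did not pass" means 0.05 or more. Library totals ran between 4956025 and 26126836 counts. KIN10 itself passed as lower in the mutant in 0 of the 7 genotype comparisons. It was higher in the mutant in the light, where mutant library 1 at 4 d and mutant libraries 1 and 3 at 5 d stood at 541, 614 and 589 CPM against 96.6 to 192 CPM in the 6 wild-type light libraries. KIN11 was lower in the mutant at 4 d in the dark (-0.47 ± 0.17, adjusted p = 0.0205) and at 4 d in the light with glucose (-1.01 ± 0.18, adjusted p = 0.000541). In the dark with glucose, the library labelled mutant 2 lay at -36.4 on the first principal component, beside wild-type libraries 1 and 3 at -36.6 and -43.2, and the library labelled wild type 2 lay at 20.3, beside mutant libraries 1 and 3 at 10.3 and 12.2. These libraries go against their labels, so comparisons that use dark glucose libraries are given with all libraries and without both. The orders over the 14 groups below use all libraries only, so the places and ranges of the dark glucose groups in them are in doubt. All glucose libraries carry one series of title numbers and all untreated 4 d libraries another, so glucose cannot be told apart from a difference between those series.

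Markers of tissues also moved with genotype. The 5 photosynthetic tissue markers (5 of 5 with counts, defining gene LHCB2.1 included) summed to 1783 to 2536 CPM in mutant and 15258 to 18542 CPM in wild-type seedlings at 4 d in the light, and to 498 to 1162 CPM in mutant and 2188 to 3716 CPM in wild-type seedlings at 5 d in the dark. The 9 root markers summed to 64.9 to 83.8 CPM in the mutant and 146 to 170.2 CPM in the wild type at 5 d in the dark, and the 4 shoot apex markers to 17 to 21.2 CPM in the mutant and 63.1 to 80.6 CPM in the wild type. The 6 seed storage markers summed to 6.57 to 12.5 CPM in the mutant and 2.54 to 6.52 CPM in the wild type in that condition, and reached 1236 CPM in mutant library 3 at 5 d in the light, the shallowest library and one of those with raised KIN10. No marker of the 4 lists was at 0 in all libraries. In whole seedlings, fewer cells of a type and less RNA per cell cannot be told apart, and the part of tissue makeup in the results below was not tested.

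The 250 bases before the counted start of 4 of the genes are shown because SEN1 and KMD4 had the most similar levels over all libraries, EXL2 followed KMD4 next, and DIN11 rose in the mutant in all 5 conditions without glucose. They were read 5′ to 3′ on the gene's strand from the RefSeq TAIR10.1 chromosomes, at the TAIR10 coordinates of the count tables. Capitals mark the 6-base words searched on both strands, the G-box CACGTG, the bZIP site ACTCAT and the sugar-response element TATCCA.
SEN1, chr4:16944691-16944940, plus strand: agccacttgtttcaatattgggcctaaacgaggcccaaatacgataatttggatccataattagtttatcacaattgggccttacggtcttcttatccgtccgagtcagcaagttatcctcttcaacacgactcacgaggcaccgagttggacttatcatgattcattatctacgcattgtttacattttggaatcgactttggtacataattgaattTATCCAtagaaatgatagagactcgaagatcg
KMD4, chr3:22142650-22142899, plus strand: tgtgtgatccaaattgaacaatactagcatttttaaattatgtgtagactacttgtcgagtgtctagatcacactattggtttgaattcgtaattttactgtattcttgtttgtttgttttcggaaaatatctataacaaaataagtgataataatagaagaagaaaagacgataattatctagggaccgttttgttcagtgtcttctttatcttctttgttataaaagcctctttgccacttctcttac
EXL2, chr5:25703679-25703928, plus strand: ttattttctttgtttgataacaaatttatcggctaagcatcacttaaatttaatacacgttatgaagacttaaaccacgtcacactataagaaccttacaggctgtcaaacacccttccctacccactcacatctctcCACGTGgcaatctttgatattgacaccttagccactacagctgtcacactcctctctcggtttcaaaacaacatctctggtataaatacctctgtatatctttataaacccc
DIN11, chr3:18393497-18393746, plus strand: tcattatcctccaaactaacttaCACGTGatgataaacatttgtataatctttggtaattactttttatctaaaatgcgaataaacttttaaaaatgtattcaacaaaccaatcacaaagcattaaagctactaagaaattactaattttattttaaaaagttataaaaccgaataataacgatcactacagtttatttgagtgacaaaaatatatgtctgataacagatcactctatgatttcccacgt
CACGTG stood in 2 of the 8 members, at -227 to -222 in DIN11 and at -112 to -107 in EXL2, where -1 is the base before the counted start, and in 6.83% of 32398 windows of the same length. TATCCA stood in 1 of the 8, at -32 to -27 in SEN1, and in 12.4% of all windows. ACTCAT stood in 0 of the 8 and in 12.7% of all windows. The 3 words do not overlap in these windows, and a match is a description of the letters only.

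**Figure D1:**
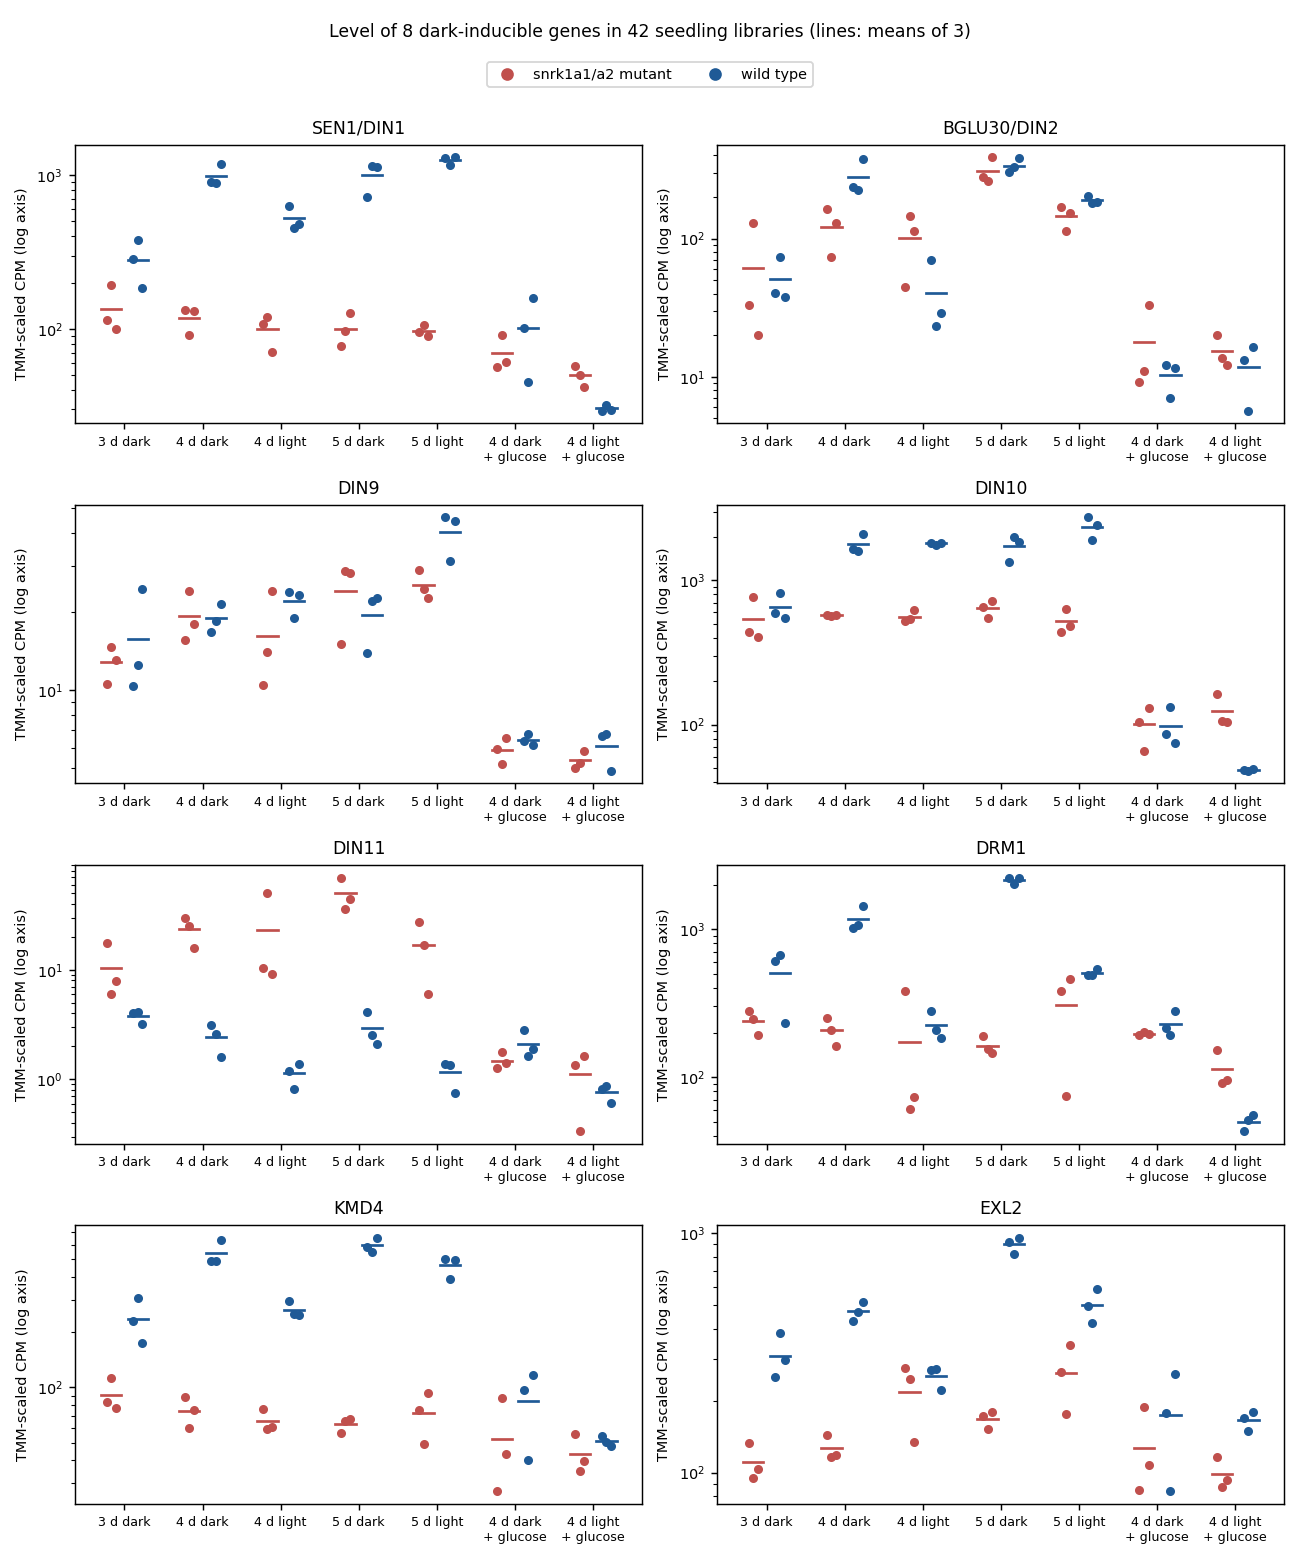
Level of each gene in all 42 libraries, in TMM-scaled CPM on a log axis, with mutant (red) left of wild type (blue) in each of 7 conditions. Points are libraries and lines are means of 3. DIN11 is the gene whose mutant points stand above wild type in all 5 conditions without glucose, while the wild-type points of SEN1, DIN10 and KMD4 fall with glucose.

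SEN1 (chr4:16944941-16946192, plus strand, 4 exons) encodes a small protein with a sulfurtransferase domain and is a classic marker of senescing and darkened leaves. At 4 d in the dark SEN1 stood at 133, 91.3 and 131 CPM in the 3 mutant libraries and at 907, 895 and 1179 CPM in the 3 wild-type libraries. At 4 d in the light it stood at 107, 119.7 and 70.7 CPM in the mutant and 634, 453 and 484 CPM in the wild type. In both conditions every mutant library lay below every wild-type library. At 5 d the levels were 76.7, 97.1 and 127 CPM in mutant seedlings, against 724, 1152 and 1135 CPM in the wild type in the dark. In the light SEN1 stood at 94.9, 106 and 89.1 CPM in mutant seedlings, against 1303, 1157 and 1305 CPM in the wild type. At 3 d in the dark the level was 114, 194 and 99.2 CPM in the mutant and 284, 376 and 183 CPM in the wild type. The 3 d groups overlapped, and the 4 d and 5 d groups did not.

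SEN1 was lower in the mutant in all 5 conditions without glucose. The log2 fold change was -1.05 ± 0.31 (adjusted p = 0.00878) at 3 d in the dark, -3.07 ± 0.33 (adjusted p = 3.17e-09) and -2.40 ± 0.32 (adjusted p = 1.68e-07) at 4 d in the dark and light, and -3.32 ± 0.33 (adjusted p = 4.87e-10) and -3.70 ± 0.34 (adjusted p = 5.68e-11) at 5 d in the dark and light. The call at 3 d was lost without mutant library 1 (adjusted p = 0.0539), mutant library 3 (0.0612) or wild-type library 2 (0.0831). With glucose SEN1 stood at 56.1, 91.6 and 61.2 CPM in the libraries labelled mutant and 102, 45.3 and 158 CPM in those labelled wild type in the dark. In the light SEN1 stood at 57.1, 50.4 and 41.8 CPM in the mutant and 29.3, 32 and 29.6 CPM in the wild type. With glucose SEN1 fell in both genotypes, with a log2 fold change of -3.29 in the dark and -4.11 in the light in wild type and with a log2 fold change of -1.0 in the light in the mutant. In the mutant in the dark the fall with glucose was -0.77 ± 0.31 (adjusted p = 0.0443). That call was lost on leaving out 4 of the 6 libraries in turn, with adjusted p of 0.124 and 0.128 without untreated libraries 1 and 3, and 0.164 and 0.131 without glucose libraries 1 and 3. Without the libraries labelled 2 it was -1.01 (adjusted p = 0.00732), and in the wild type -2.93. The call in the mutant in the light was lost without untreated library 2, at -0.84 (adjusted p = 0.0583).

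Ordered over the 14 groups, SEN1 was highest in wild type at 5 d in the light, at 1255 ± 85.2 CPM (SD, n = 3), and lowest in wild type in the light with glucose, at 30.3 ± 1.51 CPM. The highest mean was 41.4 times the lowest. Library ranges overlapped in 9 of the 13 pairs of neighbouring groups. The breaks fell below wild type 5 d light, below wild type 4 d dark, below wild type 4 d light, and between the 2 light groups with glucose.

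KMD4 (chr3:22142900-22144439, plus strand, 1 exon) encodes a Kelch-repeat F-box protein of the KISS ME DEADLY group, which marks type-B response regulators of cytokinin signalling and enzymes of phenylpropanoid synthesis for breakdown. Its exon shares 160 bases with AT3G59950 on the other strand, and the counts did not use strand, so reads of the pair cannot be told apart there. KMD4 stood at 83.4, 113 and 77 CPM in mutant and 231, 307 and 175 CPM in wild-type seedlings at 3 d in the dark. At 4 d it stood at 88.1, 59.98 and 75.3 CPM in mutant seedlings, against 491, 489.5 and 639 CPM in the wild type in the dark. In the light KMD4 stood at 76.5, 59.4 and 60.9 CPM in mutant seedlings, against 297, 250.3 and 249 CPM in the wild type. At 5 d the levels were 56.4, 65.8 and 67.1 CPM in the mutant and 585, 544 and 655 CPM in the wild type in the dark. In the light KMD4 stood at 75.7, 49.1 and 93.1 CPM in the mutant and 502, 391 and 496 CPM in the wild type. The mutant and wild-type libraries overlapped in none of these 5 conditions, and the mutant stayed between 49.1 and 113 CPM throughout.

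KMD4 fell in the mutant in all 5 conditions, with a log2 fold change of -1.38 (adjusted p = 0.000898) at 3 d in the dark, -2.86 (1.03e-08) and -2.02 (2.63e-06) at 4 d in the dark and light, and -3.24 (8.37e-10) and -2.68 (1.85e-08) at 5 d in the dark and light, as log2 fold changes with SE between 0.31 and 0.33. With glucose the libraries labelled mutant held 27.2, 87.5 and 43.2 CPM and those labelled wild type 96.5, 40.2 and 117 CPM in the dark. In the light KMD4 stood at 55.6, 34.9 and 39.5 CPM in the mutant and 54.6, 50.5 and 47.7 CPM in the wild type. In wild type the level fell with glucose with a log2 fold change of -2.67 in the dark and -2.38 in the light. In the mutant the fold changes of -0.50 (95% interval -1.13 to 0.12) and -0.60 (-1.23 to 0.03) did not pass. Without the dark glucose libraries labelled 2, the mutant comparison in the dark passed at -1.08 (adjusted p = 0.00118), and the wild-type fall was -2.33. The highest group was wild type at 5 d in the dark, at 595 ± 56 CPM (SD, n = 3), and the lowest was the mutant in the light with glucose, at 43.3 ± 10.9 CPM, a ratio of 13.7. Neighbouring groups overlapped in 11 of 13 pairs, with breaks below wild type 5 d light and below wild type 3 d dark, so the 5 untreated wild-type groups stood above all other groups.

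The family was followed through the relatives KMD1, KMD2 and KMD3. KMD1, KMD2 and KMD3 fell in the mutant at 4 d in the dark, with log2 fold changes of -3.11, -0.95 and -2.24, and in the wild type with glucose in the dark, with -3.17, -1.32 and -2.79. The glucose values without the libraries labelled 2 were -2.75, -1.02 and -2.47 (adjusted p = 6.26e-07, 0.00253 and 1.24e-08). Among relatives of SEN1, the sulfurtransferase genes STR16 and STR18 fell in the mutant at 4 d in the dark, with a log2 fold change of -2.12 and -2.25, whereas STR17 was at 0.87 and did not pass there.

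DIN10 (chr5:6833659-6836782, plus strand, 4 exons) encodes a raffinose-synthase-like protein of a family also found in germinating seeds. At 3 d in the dark DIN10 stood at 442, 763 and 407 CPM in the mutant and 591, 818 and 551 CPM in the wild type, and these groups overlapped. At 4 d the levels were 580.4, 570.4 and 576 CPM in mutant seedlings, against 1663, 1592 and 2101 CPM in the wild type in the dark. In the light DIN10 stood at 524, 537 and 620.1 CPM in mutant seedlings, against 1824, 1768 and 1833 CPM in the wild type. At 5 d they were 654, 549 and 723 CPM in mutant seedlings, against 1349, 2015 and 1854 CPM in the wild type in the dark. In the light DIN10 stood at 442, 639 and 487 CPM in mutant seedlings, against 2735, 1906 and 2444 CPM in the wild type. From 4 d on, no mutant library without glucose exceeded 723 CPM and no wild-type one was under 1349 CPM.

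The genotype difference of DIN10 was -0.28 ± 0.24 (adjusted p = 0.397) at 3 d in the dark, which did not pass, and DIN10 fell in the mutant at 4 d with a log2 fold change of -1.63 ± 0.25 (adjusted p = 1.24e-06) in the dark and -1.69 ± 0.25 (adjusted p = 8.65e-07) in the light, and at 5 d with a log2 fold change of -1.44 ± 0.25 (adjusted p = 7.24e-06) in the dark and -2.18 ± 0.25 (adjusted p = 6.97e-09) in the light. With glucose the order turned in the light, where DIN10 stood at 163, 106 and 105 CPM in the mutant and 48.5, 47.8 and 49.2 CPM in the wild type, a rise in the mutant of 1.36 ± 0.25 (adjusted p = 0.000753). In the dark with glucose the libraries labelled mutant held 104, 65.4 and 131 CPM and those labelled wild type 85.9, 132 and 74.1 CPM. DIN10 had the largest fall with glucose among the 8 genes in wild type in the light, with a log2 fold change of -5.22 (SE 0.29), against -2.17 (SE 0.25) in the mutant. In the dark it fell with a log2 fold change of -2.52 in the mutant and -4.20 in the wild type, which were -2.29 and -4.48 without the libraries labelled 2. Its highest group was wild type at 5 d in the light, at 2362 ± 421 CPM (SD, n = 3), 48.7 times the lowest, wild type in the light with glucose at 48.5 ± 0.680 CPM. Neighbours overlapped in 9 of 13 pairs, and the breaks separated wild type 5 d light, the other wild-type 4 d and 5 d groups, all remaining untreated groups, the other glucose groups, and wild type light with glucose.

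Other genes of the raffinose pathway were followed beside DIN10. SIP2 rose in the mutant by 2.05 at 4 d in the dark, while RS5 and STS were at -0.01 and 1.04 and did not pass.

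DRM1 (chr1:9933909-9935264, minus strand, 3 exons) is a dormancy-associated gene, high in resting buds of several plants and held down by auxin and sugar. In the dark DRM1 stood at 281, 248 and 193 CPM in the mutant and 610.4, 666 and 232 CPM in the wild type at 3 d. The levels were 252, 208 and 163 CPM in mutant seedlings, against 1023, 1065 and 1434 CPM in the wild type at 4 d, and 189.9, 155 and 144 CPM in mutant seedlings, against 2219.7, 2005 and 2231 CPM in the wild type at 5 d. Without glucose, no wild-type dark library at 4 d or 5 d was under 1023 CPM, and no mutant dark library exceeded 281 CPM. In the light DRM1 stood at 380.2, 61 and 73 CPM in the mutant and 278, 208 and 185 CPM in the wild type at 4 d. At 5 d in the light DRM1 stood at 381, 74.7 and 463 CPM in the mutant and 490.0, 494 and 539 CPM in the wild type. The mutant light libraries split into high ones (4 d library 1, 5 d libraries 1 and 3) and low ones (61.0 to 74.7 CPM), and the high ones were those with KIN10 above 500 CPM.

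DRM1 fell in the mutant in the dark, with a log2 fold change of -2.50 ± 0.50 (adjusted p = 7.73e-05) at 4 d and -3.72 ± 0.52 (adjusted p = 3.76e-07) at 5 d. The difference of -1.06 at 3 d did not pass (adjusted p = 0.0875) but did with DESeq2 (0.0467), and with the replicate number as a block, which pairs these 3 d libraries, it was -0.94 (adjusted p = 0.0226). Without wild-type library 3, the one at 232 CPM, it was -1.41 (0.0361). In the light the differences of -0.39 at 4 d and -0.73 at 5 d did not pass. Without the 3 mutant light libraries of raised KIN10, the log2 fold change of DRM1 was -1.79 at 4 d and -2.73 at 5 d. These 3 libraries were also the high ones in DRM1, so leaving them out lowers the mutant level by itself. The values are therefore no separate test of the genotype, and a lone mutant library was left at 5 d.

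**Figure D2:**
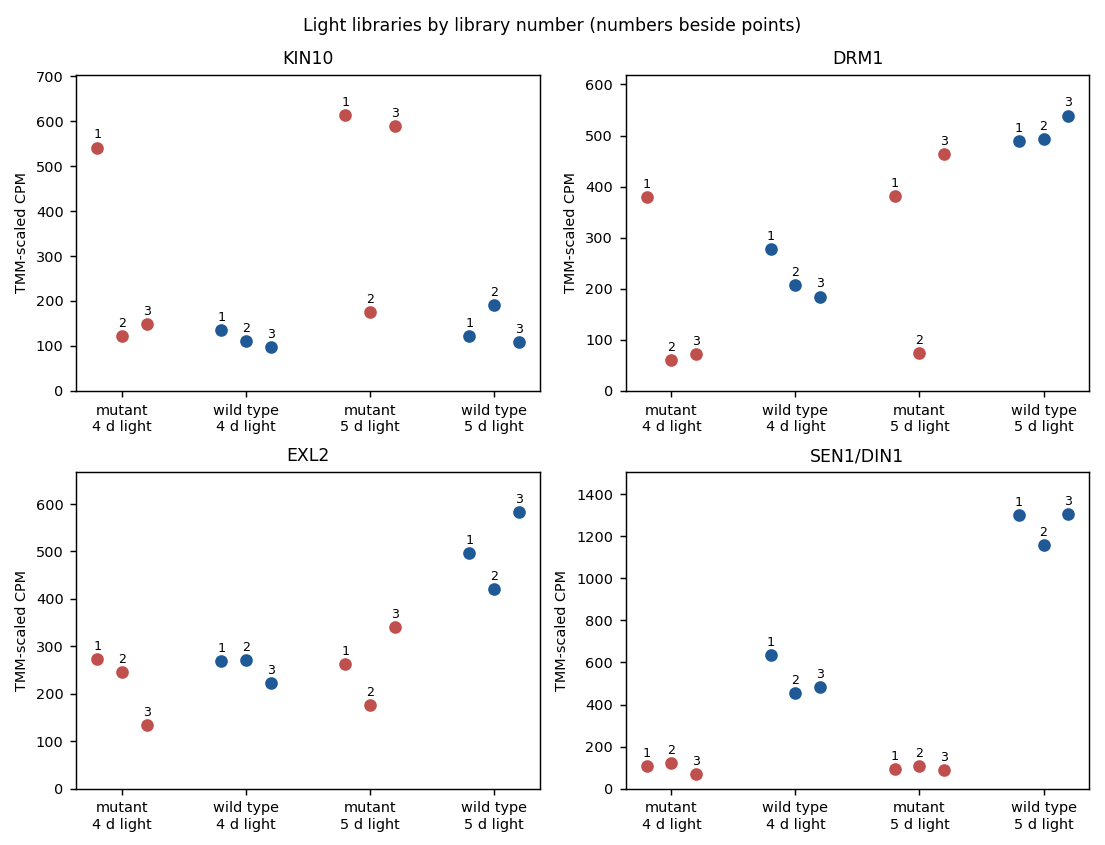
KIN10, DRM1, EXL2 and SEN1 in the 12 light libraries without glucose, in TMM-scaled CPM on linear axes from 0, with the library number above each point and mutant (red) left of wild type (blue) at each age. The mutant libraries at 541, 614 and 589 CPM of KIN10 are those at 380.2, 381 and 463 CPM of DRM1, while all 6 mutant points of SEN1 lie between 70.7 and 119.7 CPM.

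With glucose DRM1 stood at 191, 201 and 195 CPM in the libraries labelled mutant and 215, 192 and 279 CPM in those labelled wild type in the dark. In the light DRM1 stood at 153, 91.4 and 94.9 CPM in the mutant and 43.2, 50.9 and 55.5 CPM in the wild type. It fell with glucose in the wild type, with a log2 fold change of -2.36 ± 0.49 (adjusted p = 0.000269) in the dark and -2.17 ± 0.49 (adjusted p = 0.000804) in the light. The dark values without the libraries labelled 2 were -0.10 in the mutant and -2.24 (adjusted p = 0.004) in the wild type. In the mutant the values were -0.09 (95% interval -1.05 to 0.87) in the dark and -0.60 (-1.56 to 0.37) in the light. The value in the light turned to 0.75 (adjusted p = 0.0321) without the libraries of raised KIN10, which are those high in DRM1. DRM1 was highest in wild type at 5 d in the dark, at 2152 ± 127 CPM (SD, n = 3), and lowest in wild type in the light with glucose, at 49.9 ± 6.18 CPM, 43.2 times apart. Neighbours overlapped in 10 of 13 pairs, and only wild type 5 d dark, wild type 4 d dark and wild type light with glucose stood clear of their neighbours. The relatives DRM2 and AT1G56220 fell in the mutant at 4 d in the dark, with a log2 fold change of -2.20 and -2.36.

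EXL2 (chr5:25703929-25705316, plus strand, 1 exon) encodes a cell wall protein of the EXORDIUM-like family, whose relative EXL1 is known for its role when carbon is short. EXL2 stood at 133, 95 and 103 CPM in the mutant and 249.9, 382 and 294 CPM in the wild type at 3 d in the dark. At 4 d in the dark it stood at 144, 117 and 118 CPM in the mutant and 431, 469 and 517 CPM in the wild type, and at 5 d in the dark at 172, 152 and 178 CPM in the mutant and 919, 821 and 960.2 CPM in the wild type. Mutant and wild-type libraries did not overlap at any age in the dark. In the light the levels were 273, 245 and 135 CPM in the mutant and 269, 272 and 222 CPM in the wild type at 4 d, and 263, 176 and 341 CPM in the mutant and 496, 421 and 584 CPM in the wild type at 5 d, and the groups overlapped at 4 d only.

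EXL2 fell in the mutant with a log2 fold change of -1.48, -1.90 and -2.43 at 3 d, 4 d and 5 d in the dark (adjusted p = 0.0002, 1.63e-06 and 2.6e-08), and with a log2 fold change of -0.95 (0.00514) at 5 d in the light, with SE of 0.29 to 0.30. At 4 d in the light the value was -0.22 (95% interval -0.80 to 0.36) and did not pass. With glucose EXL2 stood at 84.9, 188 and 108 CPM in the libraries labelled mutant and 178, 83.7 and 258 CPM in those labelled wild type in the dark. In the light EXL2 stood at 116, 86.8 and 92.7 CPM in the mutant and 169, 149 and 179.7 CPM in the wild type. It fell with glucose in the mutant in the light (-1.15) and in the wild type in the dark (-1.45), while 0.0 in the mutant in the dark (95% interval -0.58 to 0.58) and -0.62 in the wild type in the light (-1.19 to -0.04) did not pass. The dark values without the libraries labelled 2 were -0.39 (adjusted p = 0.232) in the mutant and -1.11 (adjusted p = 0.00086) in the wild type, and with only the libraries compared the wild-type value in the light passed (-0.63, adjusted p = 0.000562). The highest group was wild type at 5 d in the dark, at 899.8 ± 71.7 CPM (SD, n = 3), 9.14 times the lowest, the mutant in the light with glucose at 98.5 ± 15.4 CPM, and neighbours overlapped in 11 of 13 pairs. In the family, EXO, EXL3, EXL4 and EXL5 fell in the mutant at 4 d in the dark, with a log2 fold change of -1.87, -0.49, -1.89 and -2.07, and EXL1 at -0.15 did not pass.

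DIN11 (chr3:18393747-18396816, plus strand, 12 exons) encodes an enzyme of the family of dioxygenases that use 2-oxoglutarate and iron, and it lies beside its relative AT3G49630. It is the member whose level was higher in the mutant in every condition without glucose. DIN11 was a low gene, with 4 to 824 counts per library, and stood at 17.6, 6.0 and 7.85 CPM in the mutant and 4.04, 4.16 and 3.19 CPM in the wild type at 3 d in the dark. At 4 d the levels were 29.5, 25 and 15.9 CPM in mutant seedlings, against 3.12, 2.61 and 1.59 CPM in the wild type in the dark. In the light DIN11 stood at 10.3, 49.9 and 9.12 CPM in mutant seedlings, against 1.19, 0.821 and 1.39 CPM in the wild type. At 5 d they were 69.6, 36.2 and 44.3 CPM in mutant seedlings, against 4.15, 2.54 and 2.08 CPM in the wild type in the dark. In the light DIN11 stood at 27.3, 16.8 and 6.03 CPM in mutant seedlings, against 1.38, 1.36 and 0.747 CPM in the wild type. In none of these 5 conditions did the groups overlap, although mutant libraries of 1 group differed by up to 5.48 times, at 4 d in the light.

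DIN11 rose in the mutant, by 1.45 ± 0.49 (adjusted p = 0.024) at 3 d in the dark, 3.24 ± 0.54 (adjusted p = 6.88e-06) and 4.34 ± 0.61 (adjusted p = 5.45e-07) at 4 d in the dark and light, and 4.09 ± 0.56 (adjusted p = 2.18e-07) and 3.85 ± 0.64 (adjusted p = 5.8e-06) at 5 d in the dark and light. At 3 d the call was lost without mutant library 1 (0.86, adjusted p = 0.248) and without wild-type library 1, 2 or 3 (adjusted p = 0.052, 0.0582 and 0.0852). With glucose DIN11 stood at 1.28, 1.76 and 1.40 CPM in the libraries labelled mutant and 2.83, 1.62 and 1.89 CPM in those labelled wild type in the dark, and at 1.34, 0.338 and 1.65 CPM in the mutant and 0.814, 0.869 and 0.604 CPM in the wild type in the light, and these groups overlapped. The mutant level thus fell with glucose, with a log2 fold change of -3.99 ± 0.56 (adjusted p = 1.33e-06) in the dark and -4.34 ± 0.59 (adjusted p = 7.15e-07) in the light, while the wild-type changes of -0.24 (95% interval -1.42 to 0.95) and -0.58 (-2.12 to 0.97) did not pass. The dark values without the libraries labelled 2 were -4.11 in the mutant and -0.08 (adjusted p = 0.952) in the wild type. For the fall of DIN11 in the mutant in the light, 14 other settings gave values between -4.79 and -3.07. The call was lost in 1 of them (adjusted p = 0.061). In the mutant at 5 d DIN11 was higher in the dark than in the light by 1.56 ± 0.48 (adjusted p = 0.0321), a call lost without mutant dark library 1, 2 or 3 (adjusted p = 0.0887, 0.0501 and 0.0663) and without light library 3 (0.207), and also with only the libraries compared (0.298).

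Over the 14 groups, the 5 untreated mutant groups were the 5 highest for DIN11. The mean ran between 50.02 ± 17.4 CPM in the mutant at 5 d in the dark and 0.762 ± 0.140 CPM in the wild type in the light with glucose (SD, n = 3), 65.6 times apart, with 11 of 13 neighbouring pairs overlapping. The breaks fell below the mutant at 5 d in the dark and between the mutant and the wild type at 3 d in the dark. The neighbouring relative AT3G49630 was at -1.08 in the mutant at 4 d in the dark and did not pass, and was lower in the mutant at 4 d in the light, with a log2 fold change of -2.39.

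BGLU30 (chr3:22216672-22220824, plus strand, 12 exons) is the beta-glucosidase first described as DIN2. It is an enzyme that releases sugar from glucosides and cell wall material. At 3 d in the dark it stood at 33.1, 130.2 and 19.9 CPM in the mutant and 40.6, 74 and 37.8 CPM in the wild type. At 4 d the levels were 163, 73.7 and 129 CPM in mutant seedlings, against 236, 223 and 376 CPM in the wild type in the dark. In the light BGLU30 stood at 44.5, 144 and 113 CPM in mutant seedlings, against 69.4, 23.2 and 29 CPM in the wild type. At 5 d they were 279, 261 and 387 CPM in mutant seedlings, against 304, 329 and 380.3 CPM in the wild type in the dark. In the light BGLU30 stood at 168, 114 and 154 CPM in mutant seedlings, against 203, 181 and 184 CPM in the wild type. The genotypes overlapped at 3 d, at 4 d in the light and at 5 d in the dark.

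BGLU30 varied widely between libraries, with SE of 0.52 to 0.54 for the genotype differences without glucose, and was higher in the mutant at 4 d in the light only (1.31 ± 0.54, adjusted p = 0.0394). That call was lost without mutant library 2 (adjusted p = 0.19) or 3 (0.0858) and without wild-type library 2 (0.158) or 3 (0.137), with no filter on low counts (0.0684) and with only the libraries compared (0.095). In the dark the differences were 0.27 at 3 d, -1.19 (adjusted p = 0.0545) at 4 d and -0.13 at 5 d, and none passed. With only the libraries compared, BGLU30 was lower in the mutant at 4 d in the dark, at -1.13 (adjusted p = 0.0174), and without mutant library 1 at -1.45 (0.0489). With glucose the level was 9.11, 11.1 and 33.3 CPM in the libraries labelled mutant and 12.2, 7.06 and 11.5 CPM in those labelled wild type in the dark. In the light BGLU30 stood at 19.98, 13.7 and 12.2 CPM in the mutant and 13.3, 5.68 and 16.3 CPM in the wild type. BGLU30 fell with glucose in both genotypes, with a log2 fold change of -2.76 (adjusted p = 0.000244) in the mutant and -4.76 (4.54e-07) in the wild type in the dark, and with a log2 fold change of -2.73 (0.000273) and -1.79 (0.0119) in the light. In the wild type in the light that call was lost without untreated library 1 (0.149) or glucose library 2 (0.0752) and with only the libraries compared (0.0805). With the libraries labelled 2 left out the dark values were -2.51 in the mutant and -4.55 in the wild type, and both passed. BGLU30 was highest in wild type at 5 d in the dark, at 338 ± 38.9 CPM (SD, n = 3), and the mutant stood next to it at 309 ± 67.7 CPM. The lowest group was the one labelled wild type in the dark with glucose, at 10.3 ± 2.79 CPM, 32.9 times below, and neighbours overlapped in 11 of 13 pairs. Its relative BGLU28 rose in the mutant, by 3.65 in the dark and 6.11 in the light at 4 d, and rose with glucose in the wild type, by 4.83 in the dark (4.81 without the libraries labelled 2, adjusted p = 0.000604) and 7.33 in the light.

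DIN9 (chr1:25042135-25044647, plus strand, 4 exons) encodes a phosphomannose isomerase, which interconverts fructose 6-phosphate and mannose 6-phosphate. It was a low gene, and without glucose it ran between 10.4 and 28.8 CPM in the 15 mutant libraries and between 10.4 and 46.1 CPM in the 15 wild-type libraries. At 3 d in the dark DIN9 stood at 10.6, 14.7 and 13.1 CPM in the mutant and 10.4, 12.5 and 24.5 CPM in the wild type. At 4 d it stood at 15.6, 24 and 18 CPM in mutant seedlings, against 16.7, 18.4 and 21.4 CPM in the wild type in the dark. In the light DIN9 stood at 10.4, 14.1 and 24.1 CPM in mutant seedlings, against 23.8, 18.9 and 23.2 CPM in the wild type. The genotypes overlapped in each of these conditions, and also at 5 d in the dark, where the levels were 15.1, 28.7 and 28.3 CPM in the mutant and 13.9, 22 and 22.6 CPM in the wild type. At 5 d in the light DIN9 stood at 28.8, 24.5 and 22.6 CPM in the mutant and 46.1, 31.3 and 44.6 CPM in the wild type. This was the condition in which DIN9 was lower in the mutant, with a log2 fold change of -0.68 ± 0.27 (adjusted p = 0.0293). The call was lost without mutant library 2 (adjusted p = 0.0656) or 3 (0.0884) and without wild-type library 1 (0.101) or 3 (0.0854). Without the libraries of raised KIN10, which leaves a lone mutant library, the value was -0.69. In the other conditions without glucose the differences were -0.30, 0.02, -0.44 and 0.31 at 3 d dark, 4 d dark, 4 d light and 5 d dark, and the 95% interval was -0.52 to 0.57 at 4 d in the dark. At 4 d in the light DIN9 was lower in the mutant without mutant library 3, at -0.83 (adjusted p = 0.0158).

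With glucose DIN9 stood at 5.92, 5.21 and 6.56 CPM in the libraries labelled mutant and 6.38, 6.81 and 6.13 CPM in those labelled wild type in the dark. In the light DIN9 stood at 5.02, 5.23 and 5.85 CPM in the mutant and 6.68, 6.78 and 4.90 CPM in the wild type. All 12 glucose libraries thus lay between 4.90 and 6.81 CPM, and without glucose no 4 d library was under 10.4 CPM. DIN9 fell with glucose with a log2 fold change of -1.69 (adjusted p = 1.45e-05) in the mutant and -1.55 (4.12e-05) in the wild type in the dark, and with a log2 fold change of -1.59 (4.2e-05) and -1.84 (4.25e-06) in the light. With the libraries labelled 2 left out the dark values were -1.61 in the mutant and -1.59 in the wild type, and both passed. Its highest mean, 40.7 ± 8.13 CPM in the wild type at 5 d in the light (SD, n = 3), was 7.58 times its lowest, 5.37 ± 0.434 CPM in the mutant in the light with glucose. Neighbours overlapped in 11 of 13 pairs, with breaks below wild type 5 d light and between the untreated and the glucose groups. PMI1, the other phosphomannose isomerase gene, was lower in the mutant at 4 d in the dark, with a log2 fold change of -0.36.

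**Figure D3:**
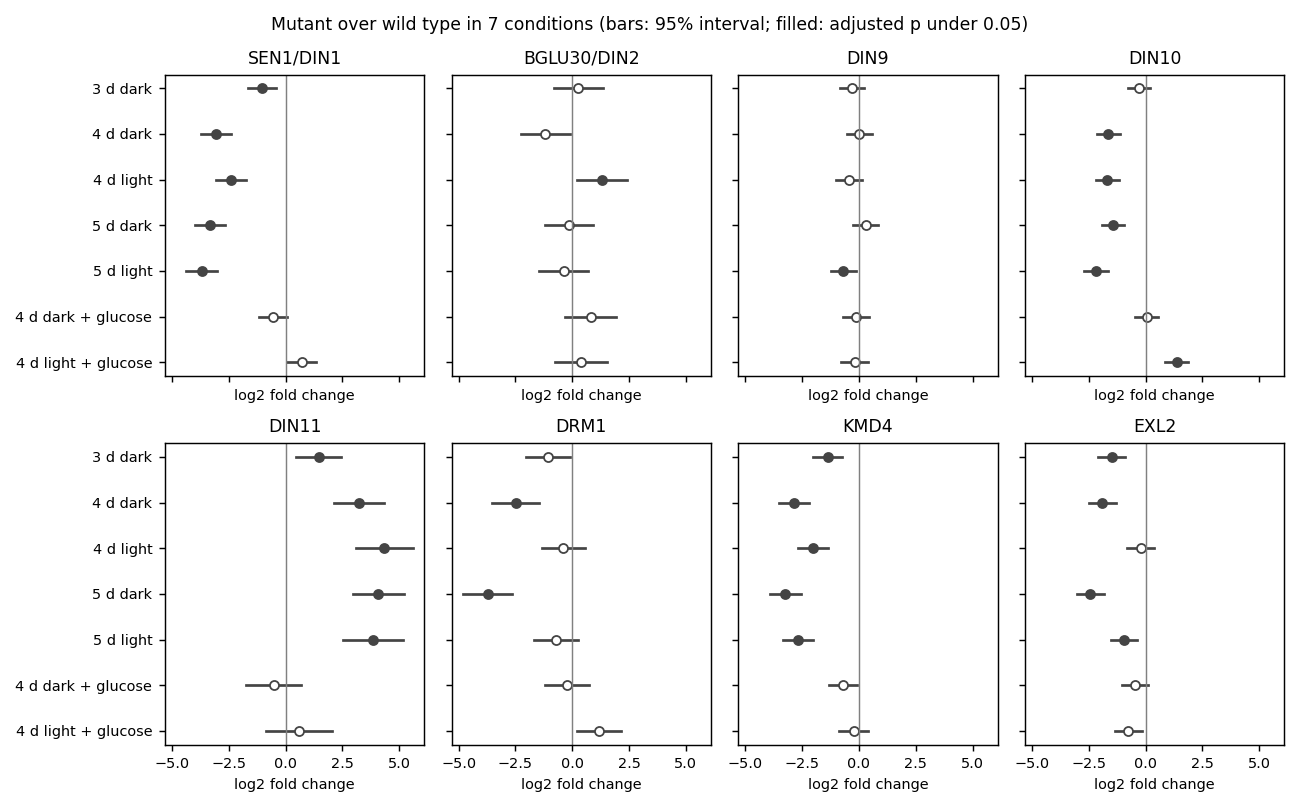
Mutant over wild type for each gene in 7 conditions, as a log2 fold change with its 95% interval, filled where the adjusted p was under 0.05. SEN1 and KMD4 lie left of 0 and filled in all 5 conditions without glucose, DIN11 lies right of 0 and filled in the same 5, and with glucose DIN10 in the light is the filled point.

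Counted over the 8 genes, the mutant was set against the wild type in 7 conditions. In 3 d dark seedlings 1 member rose in the mutant, where 17.3% of all tested genes did, and 3 fell, where 14.3% did. At 4 d in the dark 1 rose (29.5% of all tested genes) and 5 fell (28.5%), and at 4 d in the light 2 rose (28.8%) and 3 fell (25.2%). At 5 d in the dark 1 rose (29.9%) and 5 fell (31.4%), and at 5 d in the light 1 rose (33.4%) and 5 fell (26.4%). From 4 d on, between 25.2% and 33.4% of all tested genes were called in each direction, so counts of 1 to 3 members lie near or below the background. The median log2 fold change of the 8 was -1.77 at 4 d in the dark, against 0.01 for all tested genes, and -1.93 against -0.04 at 5 d in the dark.

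With glucose few of the members were called between the genotypes when all libraries were used. In the dark the libraries labelled 2 go against their labels, so a lack of calls there does not show that the genotypes were alike. In the dark 0 of the 8 members were called, and 0.0% of all tested genes were, with 532 genes and 1 member at an unadjusted p under 0.05. DESeq2 called 0 genes and 0 members. The adjusted p of every member was then 1, and the 95% interval of SEN1 was -1.17 to 0.07. Without the libraries labelled 2, 3 members were lower in the mutant in the dark with glucose, where 2.78% of all tested genes were. They were KMD4 at -1.60 (adjusted p = 0.000443), EXL2 at -1.18 (0.00776) and SEN1 at -1.15 (0.0273). The other 5 did not pass there, at values between -0.80 for DIN11 and 0.84 for BGLU30. In the light with glucose 1 member rose, DIN10, where 4.29% of all tested genes did. With only the libraries compared, DRM1, SEN1 and EXL2 were called there too, at 1.20, 0.73 and -0.74.

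**Figure D4:**
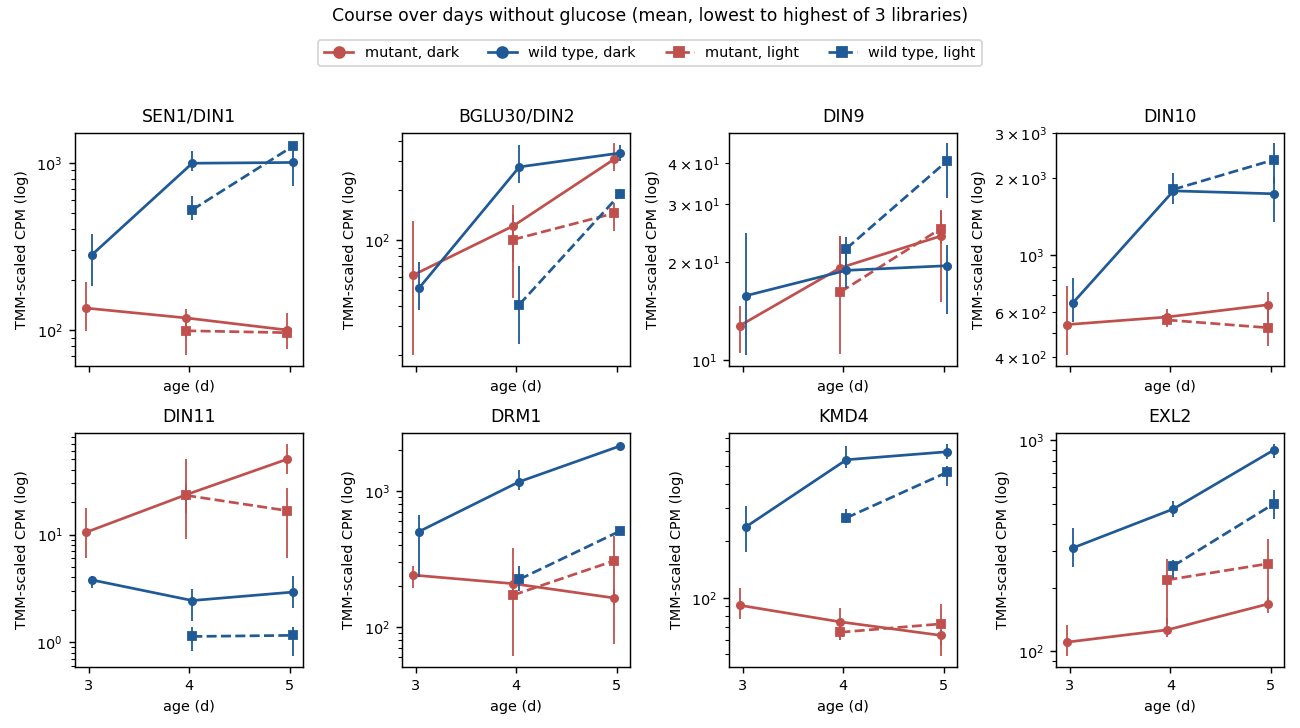
Course of each gene over days without glucose, in TMM-scaled CPM on a log axis, as means with the lowest and highest of 3 libraries, in the dark (solid lines, circles) and in the light (dashed lines, squares), for mutant (red) and wild type (blue). In the wild type SEN1, DIN10, KMD4 and BGLU30 climb between 3 d and 4 d in the dark. No mutant step between neighbouring ages passed the test, though the mutant means of BGLU30 and DIN11 climb over the days in the dark.

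Over days in the dark the wild-type level of several members climbed, while no mutant step between neighbouring ages passed. Mutant means were not flat for every member. At 3 d, 4 d and 5 d they were 61.1, 122 and 309 CPM for BGLU30 and 10.5, 23.5 and 50.02 CPM for DIN11. The change between 3 d and 5 d was not tested. Between 3 d and 4 d 4 members rose in the wild type, where 12.1% of all tested genes did: BGLU30 by 2.45, SEN1 by 1.82, DIN10 by 1.45 and KMD4 by 1.18 (adjusted p = 0.00154, 8.59e-05, 7.69e-05 and 0.00477). DRM1 was at 1.22 and did not pass (adjusted p = 0.0594), but passed with DESeq2 (0.0323), with only the libraries compared (0.0396) and without 3 d library 2 (1.48, 0.0497). In the mutant edgeR called 0 members between 3 d and 4 d, with 24.2% of all tested genes called in either direction, 2 members at an unadjusted p under 0.05 and 0 members called by DESeq2. The change with age differed between the genotypes for 3 members, lower in the mutant, where 5.13% of all tested genes were lower: SEN1 (-2.02 ± 0.43, adjusted p = 0.00455), KMD4 (-1.48 ± 0.43, adjusted p = 0.0261) and DIN10 (-1.35 ± 0.34, adjusted p = 0.0125). The difference for DIN10 was lost without mutant 3 d library 2 (adjusted p = 0.0723), the library in which the mutant held most SEN1 and DIN10 at 3 d. That for KMD4 was lost without mutant 3 d library 2 (0.0896), mutant 4 d library 2 or 3 (0.0692 and 0.0546), wild-type 3 d library 1 or 3 (0.0635 and 0.0869) or wild-type 4 d library 3 (0.0784).

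Between 4 d and 5 d in the dark edgeR and DESeq2 called 0 members in the mutant, with 11.6% of all tested genes called by edgeR and 2 members at an unadjusted p under 0.05, and 1 rose in the wild type, where 4.91% did. This was EXL2, by 0.93 ± 0.29 (adjusted p = 0.0358), and the call was lost on leaving out any 1 of the 6 libraries (adjusted p between 0.0581 without 4 d library 3 and 0.139 without 4 d library 1). Between 4 d and 5 d in the light both tools called 0 members in the mutant, with 2.6% of all tested genes called and 1 member at an unadjusted p under 0.05, and 5 rose in the wild type, where 13.6% did. They were BGLU30 (2.22), SEN1 (1.26), EXL2 (0.98), DIN9 (0.89) and KMD4 (0.80). Of these, the calls of BGLU30 and SEN1 held without each library in turn. KMD4 (adjusted p = 0.0485) lost its call without any library but 5 d library 2, DIN9 without 4 d library 2 or 5 d library 1 or 3, and EXL2 without 4 d library 3 or 5 d library 3, at adjusted p up to 0.137. Without 5 d library 3 the count was 2. DRM1 was at 1.18 ± 0.48 (adjusted p = 0.0649), and passed with DESeq2 (1.22, 0.0287) and with only the libraries compared (3.31e-05).

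Dark-grown seedlings were set against seedlings in the light of the same age. In the mutant edgeR and DESeq2 called 0 members at 4 d, with 2.37% of all tested genes called by edgeR in either direction and 1 member at an unadjusted p under 0.05, and at 5 d 1 rose in the dark, DIN11, where 4.95% of all tested genes did. At 4 d 5 members of the wild type rose in the dark, where 13.5% did. They were BGLU30 (2.78 ± 0.56, adjusted p = 0.000394), DRM1 (2.39 ± 0.50, adjusted p = 0.000476), KMD4 (1.02 ± 0.31, adjusted p = 0.0114), SEN1 (0.92 ± 0.31, adjusted p = 0.0221) and EXL2 (0.90 ± 0.29, adjusted p = 0.0178). Leaving out dark library 3 ended the calls of EXL2, KMD4 and SEN1 (adjusted p = 0.0601, 0.057 and 0.0958), leaving out light library 3 those of EXL2 (0.0793) and SEN1 (0.0791), and leaving out light library 2 that of SEN1 (0.089).

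In the wild type at 5 d 2 members rose in the dark, where 18.9% of all tested genes did, and 1 fell, where 16.5% did. DRM1 rose by 2.08 ± 0.49 (adjusted p = 0.00114) and EXL2 by 0.85 ± 0.29 (adjusted p = 0.0195), and DIN9 fell with a log2 fold change of -1.06 ± 0.27 (adjusted p = 0.00246). The call of EXL2 was lost without dark library 3 or light library 1 or 2 (adjusted p = 0.0553, 0.0548 and 0.0819). With glucose both tools called 0 members between dark and light in the mutant, with 1.42% of all tested genes called by edgeR and 0 members at an unadjusted p under 0.05, and in the wild type 3 rose in the dark, where 3.45% did. They were DRM1 (2.20 ± 0.49, adjusted p = 0.00352), SEN1 (1.75 ± 0.31, adjusted p = 0.000314) and DIN10 (1.01 ± 0.25, adjusted p = 0.00724). Without the libraries labelled 2, DIN10 was at 0.72 and did not pass (adjusted p = 0.073), and KMD4 passed at 1.07 (0.0048), against 0.73 with them. DRM1 and SEN1 were then at 2.31 (adjusted p = 0.009) and 2.1 (adjusted p = 1.11e-05). The mutant count stayed at 0, with 0.43% of all tested genes higher and 0.71% lower. With only the libraries compared, the call of SEN1 was lost (1.76, adjusted p = 0.0509).

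The effect of darkness differed between the genotypes for DRM1 and EXL2 at both ages. At 4 d 3 members had a lower dark over light change in the mutant, where 4.82% of all tested genes did: BGLU30 (-2.50 ± 0.75, adjusted p = 0.0351), DRM1 (-2.11 ± 0.67, adjusted p = 0.0448) and EXL2 (-1.68 ± 0.40, adjusted p = 0.00899). At 5 d 2 did, where 16.2% of all tested genes did: DRM1 (-2.99 ± 0.68, adjusted p = 0.00158) and EXL2 (-1.48 ± 0.40, adjusted p = 0.00659). DIN9 was at 0.99 ± 0.38 (adjusted p = 0.0507) at 5 d and passed with DESeq2 (1.03, 0.0369), RLE scaling (0.043), counts summed over models (0.0443) and without 4 of the 12 libraries in turn (adjusted p down to 0.014 without mutant dark library 1). Without the 3 mutant light libraries of raised KIN10, DRM1 was at -0.73 at 4 d (adjusted p = 0.223). At 5 d, with a lone mutant light library left, DRM1 was at -0.93 and EXL2 at -0.89. DRM1 in the mutant at 4 d was then higher in the dark than in the light by 1.63, against 0.28 with all libraries. The libraries left out are the ones high in DRM1, so leaving them out moves its values by itself. At 5 d they were also higher in EXL2, at 263 and 341 CPM against 176 CPM in the library kept. Leaving them out thus moves the EXL2 value at 5 d by itself too. At 4 d the call of BGLU30 was lost on leaving out mutant dark library 2 or 3, mutant light library 2 or 3, wild-type dark library 1 or 3 or wild-type light library 2 or 3, at adjusted p up to 0.0957. That of DRM1 was lost without any 1 library other than mutant light library 2 or 3, and was at -0.76 (adjusted p = 0.432) without mutant light library 1.

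**Figure D5:**
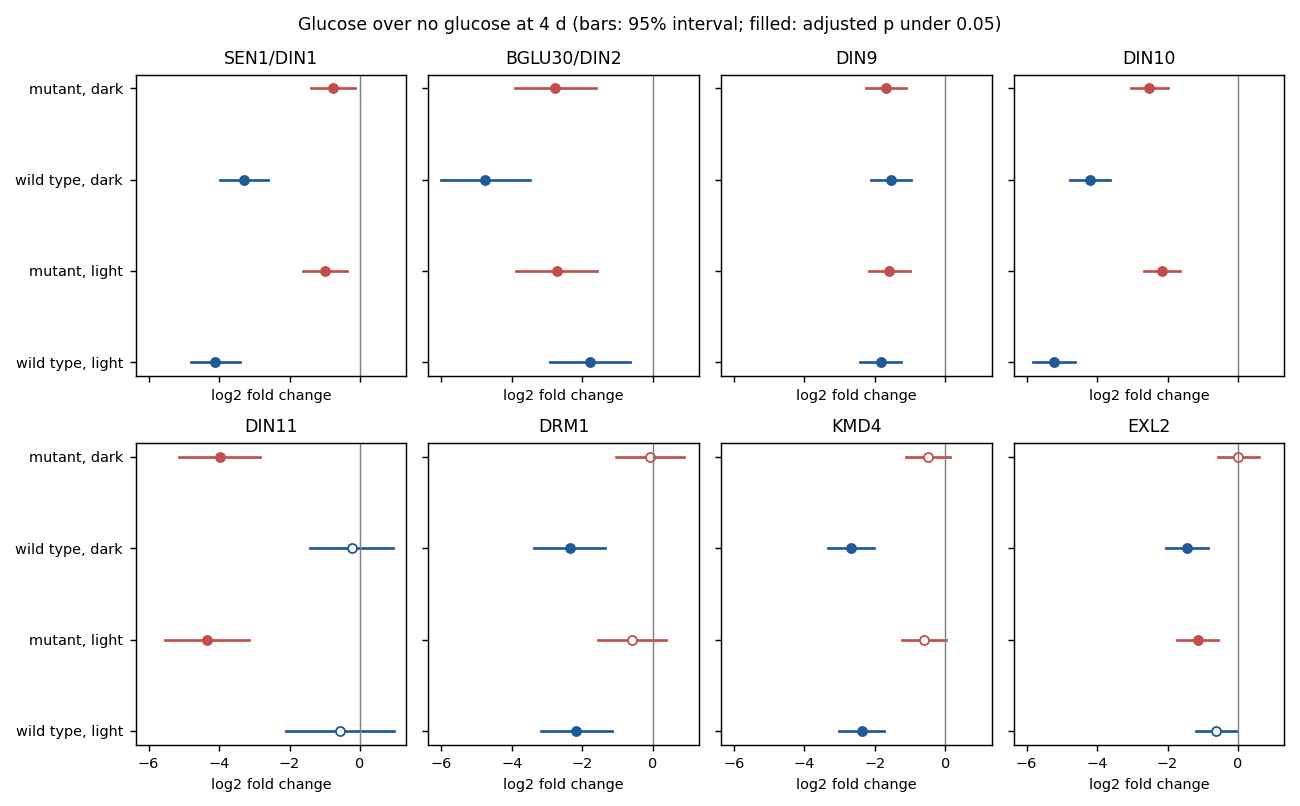
Glucose over no glucose at 4 d for each gene, as a log2 fold change with its 95% interval, filled where the adjusted p was under 0.05, with mutant (red) above wild type (blue) in the dark and in the light. The intervals of DIN9 overlap in all 4 comparisons, SEN1, DIN10 and KMD4 lie farther left in wild type, and DIN11 lies far left in the mutant.

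With glucose 5 to 7 of the 8 members fell in each of 4 comparisons. In the mutant 5 members fell in the dark, where 21.4% of all tested genes did, and 6 fell in the light, where 23.2% did. Of the 8, 7 fell in the wild type in the dark, where 20.9% of all tested genes did. In the light 6 did, where 18.3% of all tested genes did. Without the dark glucose libraries labelled 2, the dark counts were 6 in the mutant and 7 in the wild type, where 18.1% and 16.6% of all tested genes fell. BGLU30, DIN9, DIN10 and SEN1 fell in all 4 comparisons, DIN11 fell in both mutant comparisons and DRM1 and KMD4 in both wild-type comparisons. The median log2 fold change of the 8 was -1.23 in the dark and -1.37 in the light in the mutant, and -2.52 and -2.0 in the wild type, where that of all tested genes lay between -0.04 and 0.03. The dark medians without the libraries labelled 2 were -1.34 in the mutant and -2.29 in the wild type.

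The glucose effect was then compared between the genotypes, both of which carry the same change of title series. In the dark 6 members had a higher value in the mutant, where 17.5% of all tested genes did, and 1 a lower one, where 19.7% did. The higher ones were SEN1 (2.52 ± 0.44, adjusted p = 4.42e-05), DRM1 (2.27 ± 0.67, adjusted p = 0.00847), KMD4 (2.17 ± 0.44, adjusted p = 0.000244), BGLU30 (1.99 ± 0.76, adjusted p = 0.0394), DIN10 (1.68 ± 0.35, adjusted p = 0.000312) and EXL2 (1.45 ± 0.40, adjusted p = 0.00508), and the lower one was DIN11 (-3.75 ± 0.80, adjusted p = 0.000472). Without the libraries labelled 2, BGLU30 was at 2.03 (adjusted p = 0.0856) and EXL2 at 0.72 (0.128), and neither passed. KMD4 was then at 1.26 (adjusted p = 0.00789), SEN1 at 1.92, DIN10 at 2.19, DRM1 at 2.14 (adjusted p = 0.0445) and DIN11 at -4.03, and all 5 passed. BGLU30 also lost its call on leaving out untreated mutant library 2 or 3, glucose mutant library 3, untreated wild-type library 3 or glucose wild-type library 2 or 3, and was at 1.16 (0.24) without glucose mutant library 3. In the light 3 members had a higher value in the mutant, where 13.8% of all tested genes did, and 1 a lower one, where 16.0% did. These were SEN1 (3.11 ± 0.44, adjusted p = 3.15e-06), DIN10 (3.05 ± 0.35, adjusted p = 9.49e-08) and KMD4 (1.78 ± 0.44, adjusted p = 0.00224), and DIN11 (-3.76 ± 0.96, adjusted p = 0.00337). The value of DIN11 lay between -4.22 and -2.49 in 20 other settings, and its call was lost in 1 of them (adjusted p = 0.0583). DRM1 in the light was at 1.57 and did not pass, though it did with DESeq2 (1.61, adjusted p = 0.0395). It was at 2.92 (adjusted p = 0.000209) without mutant light library 1 and at 2.98 (7.8e-07) without the libraries of raised KIN10, which are those high in DRM1.

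The 8 genes differed in level per length as well as in pattern. The mean over all 42 libraries was 429 CPM per kilobase of exon for DRM1, 358 for SEN1, 290.0 for DIN10, 199.7 for EXL2, 125 for KMD4, 62.6 for BGLU30, 9.72 for DIN9 and 7.71 for DIN11. Across the 42 libraries, which share groups and depth, the log2 CPM of SEN1 and KMD4 had the highest Pearson correlation among the 8, at 0.961, followed by KMD4 with EXL2 at 0.885 and SEN1 with DIN10 at 0.861. DIN11 had correlations between -0.24 and 0.49 with the other 7. The genes most like each member were sought among 16651 with a mean log2 CPM of at least 2. The 8 members and the 18 low-energy markers counted below were left out of this search, so none of them could be named. The most similar genes were STP1 (a hexose transporter, 0.972) and WRI4 (0.968) for SEN1, TLP2 (0.982) and KMD3 (0.979) for KMD4, AT1G18270 (0.957) and GAT1_2.1 (0.956) for DIN10, and AT5G19860 (0.945) and XTH24 (also SEN4, 0.945) for EXL2. They were NAC3 (also ANAC055, a NAC factor, 0.939) and GLYI7 (0.935) for BGLU30, AT5G35580 (0.947) and AT3G59660 (0.941) for DIN11, SNRK2.2 (0.933) and AT3G47160 (0.931) for DRM1, and CST (0.925) and AT5G54870 (0.906) for DIN9. These correlations are descriptions of the same libraries and carry no test.

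Other genes used as markers of low energy were counted from a list of 18, chosen with earlier results of these data known. Each count of a list is followed by the share of all tested genes called the same way. In the mutant at 4 d in the dark 16 of the 18 fell (28.5%) and 1 rose (29.5%), and at 5 d in the dark 16 fell (31.4%) and 0 rose (29.9%). ASN1 (DIN6), an asparagine synthetase, was at -2.12, and DIN3 and DIN4, subunits of the branched-chain keto acid dehydrogenase, were at -2.17 and -2.40, at 4 d in the dark. BZIP2, a bZIP factor, rose by 0.67, and PRODH1, a proline dehydrogenase, was at 0.54 and did not pass. The median of the list was -2.15 at 4 d in the dark and -2.22 at 5 d in the light, beside medians of all tested genes of 0.01 and 0.19. In 3 d dark seedlings 11 fell (14.3%) and 2 rose (17.3%), and at 4 d in the light 15 fell (25.2%) and 1 rose (28.8%). At 5 d in the light 15 fell (26.4%) and 0 rose (33.4%). Without the mutant light libraries of raised KIN10, 15 fell (28.6%) and 1 rose (26.9%) at 4 d in the light. At 5 d in the light that setting leaves a lone mutant library, so no count is given.

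With glucose 15 of the 18 fell in the mutant (21.4%) and 17 in the wild type (20.9%) in the dark, and 14 (23.2%) and 17 (18.3%) in the light. Without the libraries labelled 2, 16 fell in the mutant (18.1%) and 18 in the wild type (16.6%) in the dark. Without those of raised KIN10, 15 fell in the mutant in the light (24.7%). Between 3 d and 4 d in the dark 1 of the 18 rose in the mutant (11.5%) and 16 in the wild type (12.1%). In the dark with glucose 0 of the 18 were called between the genotypes (0.0% of all tested genes), and in the light with glucose 3 were higher in the mutant (4.29%). Leaving out the libraries labelled 2, 5 were lower (2.78%) and 2 higher (1.85%) in the mutant in the dark with glucose.

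Of 24 relatives of the 8 genes in their families, 22 passed the filter on low counts. In the mutant at 4 d in the dark 3 rose (29.5%) and 12 fell (28.5%), and at 5 d in the dark 4 rose (29.9%) and 12 fell (31.4%). In 3 d dark seedlings 6 rose (17.3%) and 8 fell (14.3%), at 4 d in the light 3 rose (28.8%) and 13 fell (25.2%), and at 5 d in the light 4 rose (33.4%) and 10 fell (26.4%). From 4 d on without glucose, the share of the 22 that rose was below that of all tested genes. The share of the 22 that fell was above it. Without the mutant light libraries of raised KIN10, 23 relatives passed the filter, of which 4 rose (26.9%) and 14 fell (28.6%) at 4 d in the light. At 5 d in the light a lone mutant library was left, and no count is given. With glucose in the dark 6 rose (19.3%) and 5 fell (21.4%) in the mutant, and 2 rose (22.0%) and 9 fell (20.9%) in the wild type. Leaving out the libraries labelled 2, 5 rose (15.8%) and 5 fell (18.1%) in the mutant, and 3 rose (16.7%) and 8 fell (16.6%) in the wild type.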

How the data were processed

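Total RNA of seedlings was sequenced in 48 columns of 3 count tables, and the deposited values are raw counts per transcript model, made by featureCounts 1.6.2 per the file headers and from STAR alignments to TAIR10 per the submitters' processing notes, which also name DESeq2. Reads were counted for every model they overlapped and without strand, per the file headers, so antisense partners and near-identical copies are uncertain. The exonic length in base pairs, another unit in the deposited tables, chose the longest model of each gene. These models hold 65.2% of all counts. A read that overlaps several models enters that total more than once, so the share does not measure lost reads. Columns of 3 d dark seedlings with the same genotype and number in both title series differed by little more than counting error (chi-square per degree of freedom 1.04 to 1.06, against 7.12 to 40.6 between numbers) and were summed, which left 42 libraries.

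Counts were filtered with filterByExpr, scaled with TMM and fitted with a mean per group in edgeR 4.0.16 (R 4.3.3, robust quasi-likelihood, 28 residual degrees of freedom, biological coefficient of variation 21.1%). The 28 comparisons were each adjusted by Benjamini-Hochberg over 22586 genes. The test was first run on simulated counts with known changes. Tables were handled with Python 3.11.15, pandas 2.3.3 and numpy 2.4.6.

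The members and lists were chosen with earlier results of these data known. The text names every member in every group, and family relatives and low-energy markers as counts with examples. It also names the 2 genes most correlated with each member, outside the members and the low-energy list. The genome was used in place of a promoter table, and 31912 of 32678 identifiers matched a RefSeq locus tag. Of the introns of the counted models, 99.0% began with GT and ended with AG in that genome. The numbers of the 3 d dark libraries were taken to pair them, since their deviations correlated at 0.15, 0.14 and 0.19. These correlations are weak and were not tested, and the main fit used no replicate block. The alternatives were DESeq2 1.42.0, RLE scaling, no filter on low counts, other models, fewer libraries, 1 title series for 3 d dark and a replicate block. The counts of the low-energy and relative lists without those libraries were added after seeing the data.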

Additional observations from a re-analysis of the deposited data

Results flagged for a closer look

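Members are listed here where the genotypes differed in the response to darkness, glucose or age. Each was called by edgeR's quasi-likelihood test of the interaction itself, with adjusted p over all tested genes. Of all tested genes, 4.82% and 16.2% were lower for darkness at 4 d and 5 d, and 5.13% for age. For glucose, 17.5% were higher and 19.7% lower in the dark, and 13.8% and 16.0% in the light. The share called in at least 1 of these tests was not counted. For darkness at 4 d, the change in the mutant minus that in the wild type was -2.11 for DRM1 (adjusted p = 0.0448), -2.50 for BGLU30 (0.0351) and -1.68 for EXL2 (0.00899). For darkness at 5 d it was -2.99 for DRM1 (0.00158) and -1.48 for EXL2 (0.00659). For glucose in the dark it was 2.52 for SEN1 (4.42e-05), 2.27 for DRM1 (0.00847), 2.17 for KMD4 (0.000244), 1.99 for BGLU30 (0.0394), 1.68 for DIN10 (0.000312), 1.45 for EXL2 (0.00508) and -3.75 for DIN11 (0.000472). For glucose in the light it was 3.11 for SEN1 (3.15e-06), 3.05 for DIN10 (9.49e-08), 1.78 for KMD4 (0.00224) and -3.76 for DIN11 (0.00337). For the step between 3 d and 4 d in the dark it was -2.02 for SEN1 (0.00455), -1.48 for KMD4 (0.0261) and -1.35 for DIN10 (0.0125). DIN9 had no difference of this kind that passed in edgeR with all libraries, and its value for darkness at 5 d, 0.99 ± 0.38 (adjusted p = 0.0507), passed with DESeq2 (0.0369). The darkness difference of DRM1 at 4 d did not pass without the 3 mutant light libraries of raised KIN10, which are those high in DRM1. With a lone mutant light library left at 5 d, the differences were -0.93 for DRM1 and -0.89 for EXL2. The 5 d libraries left out were higher than the one kept in both genes. The dark glucose differences of BGLU30 and EXL2 did not pass without the libraries labelled 2, where that of KMD4 was 1.26. The glucose difference of DIN11 in the light lost its call in 1 of 20 other settings (adjusted p = 0.0583).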

How the results depend on the processing

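Of 3336 recomputed member values, 95 changed sign and 186 crossed the threshold alone. No called value changed sign, and 1 value that changed sign passed the threshold, that of DRM1 with glucose in the mutant in the light (0.75 without the mutant light libraries of raised KIN10). The cause of the changes below was not tested, except that fewer libraries leave fewer degrees of freedom.

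Counts of members called moved by over 1.5 times as follows. Without the dark glucose libraries labelled 2, 3 members were lower in the mutant in the dark with glucose, where 2.78% of all tested genes were. Without the mutant light libraries of raised KIN10, 1 member differed between dark and light in the mutant at 4 d. This was DRM1, higher in the dark, where 1.85% of all tested genes were. At 5 d that setting leaves a lone mutant light library, so its counts are not given. With only the libraries compared, the counts were 4 for mutant over wild type in the light with glucose, 0 for dark over light in the mutant at 5 d, 5 for dark over light in the wild type at 5 d, 1 for the 3 d to 4 d step in the mutant, 2 for the 4 d to 5 d step in the dark in the wild type, 1 for the genotype difference in darkness at 4 d and 5 for that in age. That in darkness at 4 d was also 1 with no filter on low counts. A replicate block was also used, although shared numbers were taken to pair libraries at 3 d only. With it the counts were 4 for mutant over wild type in the light with glucose, 0 and 5 for dark over light at 5 d in the mutant and the wild type, 2 for each dark step in the mutant, 2 for the 4 d to 5 d dark step in the wild type and 5 for the genotype difference in age. In the other lists, 5 low-energy markers were lower (2.78% of all tested genes) and 2 higher (1.85%) in the mutant in the dark with glucose without the libraries labelled 2.

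Leaving out 1 library gave counts of 2 to 4 for mutant over wild type at 3 d, 0 to 1 and 0 to 3 for dark over light in the mutant at 4 d and 5 d, 2 to 5 for dark over light in the wild type at 4 d, 0 to 1 for the 3 d to 4 d dark step and for the light step in the mutant, 0 throughout for the 4 d to 5 d dark step in the wild type, 2 to 5 for the light step in the wild type, 1 to 2 for the genotype difference in darkness at 4 d and 1 to 4 for that in age.

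The values that changed sign lay near 0 or had not passed. With a replicate block, BGLU30 in mutant over wild type at 3 d was -0.12 and EXL2 with glucose in the mutant in the dark -0.07. That EXL2 value was -0.021 with RLE scaling, -0.021 with DESeq2 and -0.39 without the libraries labelled 2. DRM1 in dark over light in the mutant at 5 d was 1.08 without the libraries of raised KIN10. Leaving out 1 library, mutant over wild type ran between -0.94 and 0.69 for BGLU30 and -0.53 and 0.16 for DIN9 at 3 d, -0.17 and 0.15 for DIN9 at 4 d in the dark, -1.74 and 0.017 for DRM1 and -0.42 and 0.031 for EXL2 at 4 d in the light, and -0.027 and 1.12 for BGLU30 and -0.20 and 0.33 for DIN10 in the dark with glucose. Dark over light for DRM1 in the mutant at 4 d ran between -0.12 and 1.63. Glucose in the mutant ran between -0.23 and 0.078 for DRM1 and -0.39 and 0.23 for EXL2 in the dark, and between -0.998 and 0.76 for DRM1 in the light. The 3 libraries of a group differed by up to 6.53 times, for BGLU30 in the mutant at 3 d in the dark, and DIN11 had 4 to 824 counts per library.

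Some calls of members were lost under other settings, with adjusted p given in parentheses. With only the libraries compared these included the genotype differences in darkness at 4 d of BGLU30 (0.0532) and DRM1 (0.127). With no filter on low counts they were those same differences (0.059 and 0.0743), that of BGLU30 in the effect of glucose in the dark (0.0662), the fall of SEN1 with glucose in the mutant in the dark (0.067), the rise of KMD4 in the wild type in the light (0.0755) and BGLU30 at 4 d in the light. From 1 title series, DIN11 at 3 d was at an adjusted p of 0.0524. With the replicate block the call of SEN1 between dark and light in the wild type with glucose was lost too (0.0887).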
